A study of Mus musculus with 6 samples.

Results

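The 10 genes described here encode 4 growth factor receptors (Met, Erbb2, Erbb3 and Egfr), 5 ligands of the ErbB family (Areg, Hbegf, Tgfa, Btc and Ereg) and 1 intracellular inhibitor of ErbB kinases (Errfi1). They were listed by symbol and matched to the deposited mouse gene identifiers through GENCODE M21, and all 10 were found among 28418 genes. Transcript levels were read in 4T1 cells, a mouse mammary carcinoma line labelled as epithelial and described by the submitters as triple-negative. The line had been kept for 35 passages with perfluorooctane sulfonate (PFOS), a persistent fluorinated surfactant, at 0 nM (3 libraries) or 100 nM (3 libraries), and poly(A) RNA was sequenced. The comparison asks which transcripts differ after that long exposure. All results come from this 1 cell line, both groups are labelled with the same passage number, and no vehicle is named for the 0 nM group.

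ErbB receptors are tyrosine kinases that pair with each other when a ligand binds. EGFR binds each of the ligands listed, ERBB2 has no known ligand of its own and acts as a partner, and ERBB3 has little kinase activity and couples strongly to PI3K when phosphorylated. The ligands are made as membrane-anchored precursors and are released by ADAM proteases. Active receptors signal through the Ras-ERK cascade and through PI3K and AKT, and several of the ligand genes and the inhibitor gene are themselves switched on by that signalling. MET, the receptor of hepatocyte growth factor, uses many of the same adaptors and is best known in carcinoma for driving cell scattering and invasion.

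Values are FPKM, a fragment count set against transcript length and sequencing depth, so levels can be compared between genes. Library sums were 306716 to 309381 FPKM. The 6 libraries held epithelial keratins at high levels (Krt8 at 289 to 310.04 FPKM and Krt18 at 276 to 308 FPKM), while the basal keratins Krt5 and Krt14 were listed at no more than 0.03 and at 0.65 to 1.55 FPKM and the oestrogen receptor gene Esr1 at no more than 0.45 FPKM. The summed level of 7 epithelial markers was 662.6 to 662.9 FPKM at 0 nM and 684.2 to 734.7 FPKM at 100 nM. Cdh1 rose from 54.1 to 66.2 FPKM (limma adjusted p = 0.00323). Epcam (25.6 and 31.7 FPKM), Krt14 (0.767 and 1.33 FPKM) and Krt18 (277 and 298 FPKM) were higher without overlap between the groups but were not called (limma adjusted p = 0.0606, 0.0802 and 0.0861). Of all 11741 genes tested, 1606 were higher without overlap. Krt8, Cldn4 and Krt5 overlapped between the groups. The part of these markers in the results was not tested. Replicate 3 at 100 nM stood apart. Of 13132 genes that averaged 0.5 FPKM or more, 85 were there below 0.5 times the lowest of the other 5 libraries, against 17 to 34 genes for each other library, and 106 were above 2 times the highest, against 2 to 16. It also had the highest value for 10 of 11 leukocyte markers. The T cell gene Cd3e was at 0.66 FPKM there and listed at 0 in the other 5. Some other leukocyte markers were present in every library, with Lyz2 at 103 to 240 FPKM (highest in replicate 2 at 100 nM) and Csf1r at 3.3 to 7.57 FPKM. The summed level of the 11 markers was 130.1 to 167.9 FPKM at 0 nM. At 100 nM it was 129.7, 259.0 and 285.5 FPKM in replicates 1, 2 and 3. The part of such cells in the results was not tested, and values without replicate 3 at 100 nM are given where a result rests on it. In bulk RNA, fewer cells of a type and less RNA per cell cannot be told apart. The labels do not state whether the libraries at 1 dose are separate cultures, and the spread that the p-values rest on may therefore be technical.

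At 100 nM PFOS, transcripts of 2 ErbB ligands and of the feedback inhibitor were lower: Areg by 29.2%, Hbegf by 21.5% and Errfi1 by 18.1% in mean FPKM. The receptors Met, Erbb2 and Erbb3 and the ligand Tgfa did not pass the test. Egfr, Btc and Ereg had means under 1 FPKM over the 6 libraries and were not among the genes tested. Of the 10 genes, 7 were tested, 3 fell, 0 rose and 4 were not called (limma-trend on log2(FPKM + 1), called at a Benjamini-Hochberg adjusted p under 0.05 over 11741 genes). Over all genes tested, 4.15% were called, 2.46% as lower and 1.69% as higher. Of the 7 tested members, the 3 that fell had every library at 100 nM below the 0 nM group, beside 13.3% of all genes tested. The calls rest on the same values, so this lack of overlap adds no separate evidence. Without replicate 3 of both groups, with 2 libraries a group, 1 of the 3 calls, that of Hbegf, was made.

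**Figure D1:**
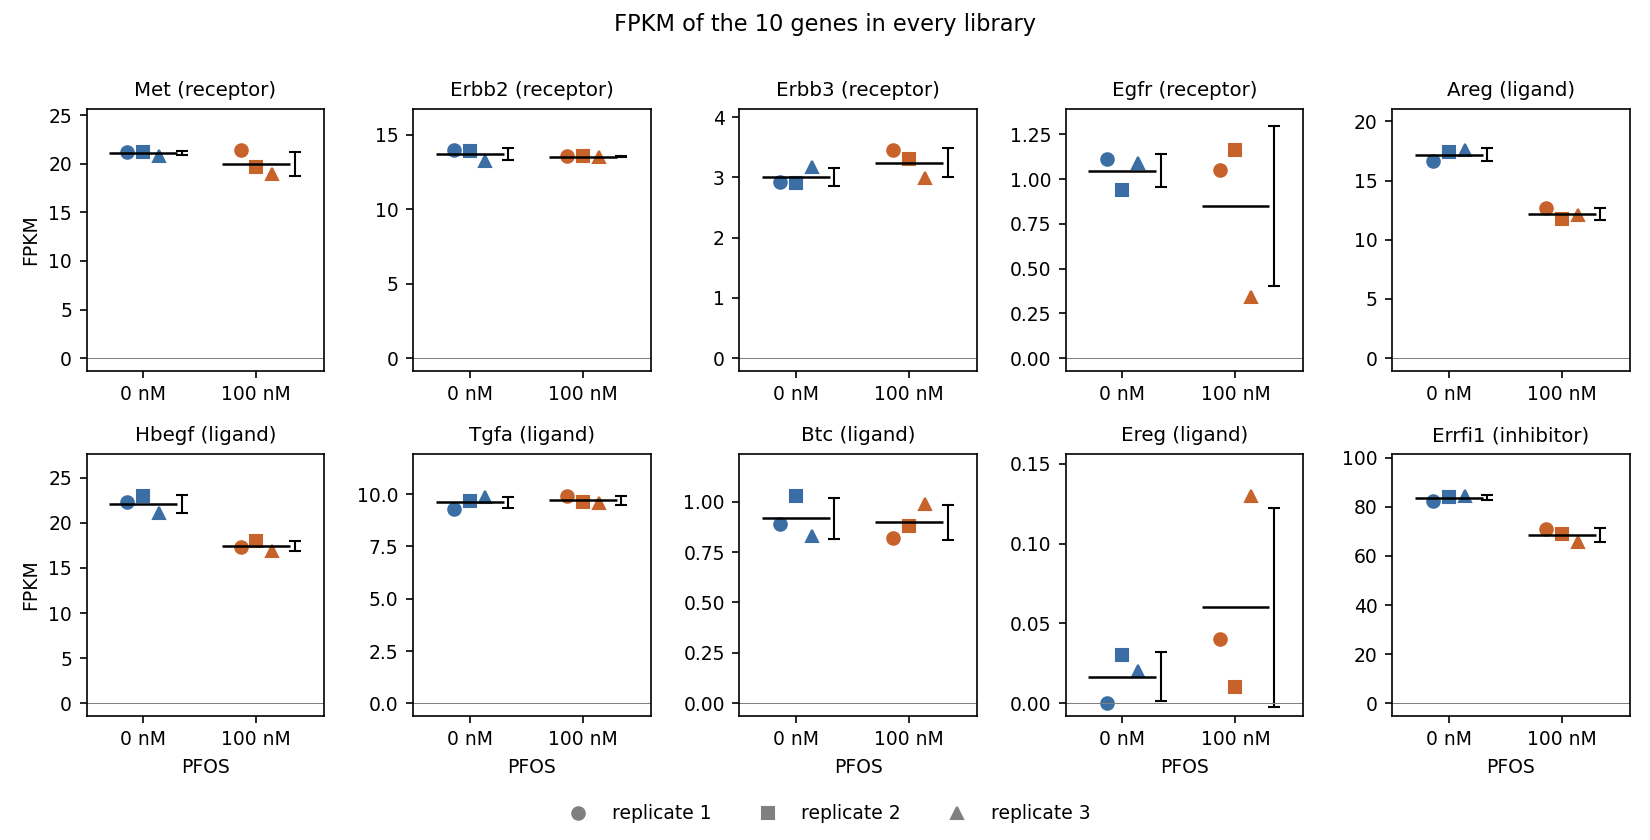
FPKM of each of the 10 genes (vertical axes, each with its own scale) at 0 nM (blue) and 100 nM PFOS (orange). Symbols are the replicates, horizontal bars the means and error bars the SD of 3 libraries. Areg, Hbegf and Errfi1 show no overlap between the groups, and Egfr has 1 low library at 100 nM, at 0.34 FPKM.

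Errfi1 had the highest level of the 10 genes, at 76.1 FPKM averaged over the 6 libraries, above 95.3% of all genes tested. Met followed at 20.5 FPKM and Hbegf at 19.7 FPKM, but the order of that pair split by dose: Hbegf was the higher in 3 of 3 libraries at 0 nM and Met in 3 of 3 at 100 nM. Areg stood at 14.7 FPKM and Erbb2 at 13.6 FPKM, and their order also split by dose, with Areg the higher in 3 of 3 libraries at 0 nM and Erbb2 in 3 of 3 at 100 nM. Tgfa, at 9.65 FPKM, was below Erbb2 in 6 of 6 libraries with no overlap of their ranges. Erbb3 lay lower at 3.13 FPKM. Egfr and Btc were close together at 0.948 and 0.907 FPKM, with Egfr the higher in 4 of 6 libraries. Ereg was lowest, at 0.0383 FPKM. The ErbB receptor with the most transcript was therefore Erbb2, the partner without a ligand of its own, and Met was at 17.0 to 22.5 times the level of Egfr in 5 libraries and at 55.7 times in replicate 3 at 100 nM.

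Among the receptors, Met (ENSMUSG00000009376, GRCm38 chr6:17463800-17573980, plus strand) was at 21.2, 21.2 and 20.8 FPKM at 0 nM and at 21.4, 19.7 and 18.9 FPKM at 100 nM. The highest and the lowest values both belonged to the 100 nM group, so the groups overlapped. On the log2(FPKM + 1) scale its difference, 100 nM minus 0 nM, was -0.07 ± 0.04 (SE), with a 95% interval from -0.18 to 0.03 and a limma adjusted p of 0.409. Hgf, which encodes the MET ligand, was listed at no more than 0.04 FPKM in any library.

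Erbb2 (ENSMUSG00000062312, chr11:98412470-98437716, plus strand), the gene amplified in HER2-positive breast tumours, was at 13.9, 13.9 and 13.2 FPKM at 0 nM. At 100 nM it was at 13.6, 13.6 and 13.5 FPKM, inside the range of the 0 nM group. On the log2(FPKM + 1) scale the difference was -0.02 ± 0.03 (SE), with a 95% interval from -0.08 to 0.05 (limma adjusted p = 0.812). Of the receptors tested it had the narrowest interval. Its end overlaps that of Mien1, on the other strand, by 9 bases.

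Erbb3 (ENSMUSG00000018166, chr10:128567523-128589652, minus strand) was at 2.93, 2.91 and 3.18 FPKM at 0 nM and at 3.45, 3.30 and 2.99 FPKM at 100 nM. Replicates 1 and 2 at 100 nM lay above the 0 nM group and replicate 3 inside it. On the log2(FPKM + 1) scale the difference was 0.08 ± 0.06 (SE), with a 95% interval from -0.05 to 0.22 (limma adjusted p = 0.474).

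Egfr (ENSMUSG00000020122, chr11:16752203-16918158, plus strand), a receptor of each of the 5 ligands among the 10 genes, was low throughout. It was at 1.11, 0.94 and 1.09 FPKM at 0 nM and at 1.05, 1.16 and 0.34 FPKM at 100 nM. In 5 libraries it lay between 0.94 and 1.16 FPKM, and replicate 3 at 100 nM was at 0.362 times the lowest of those. Egfr was thus 1 of the 85 genes that were below 0.5 times the other libraries there, and no other member among those genes was. An exact two-sided permutation test on log2(FPKM + 1) gave p = 0.8, where 3 against 3 libraries cannot go below 0.1. With no filter on low values its difference was -0.18, with a 95% interval from -0.65 to 0.30 (limma adjusted p = 0.752), and without replicate 3 at 100 nM it was 0.04. The summed level of Egfr, Erbb2 and Erbb3 was 17.7 ± 0.240 FPKM without PFOS and 17.6 ± 0.710 FPKM with it (SD over 3 libraries).

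Among the ligands, Areg, which encodes amphiregulin, the ligand that drives duct growth in the mammary gland, had the largest fall of the tested members (ENSMUSG00000029378, chr5:91139599-91148432, plus strand). It was at 16.6, 17.4 and 17.6 FPKM at 0 nM and at 12.7, 11.7 and 12.1 FPKM at 100 nM. The lowest library at 0 nM lay well above the highest at 100 nM. Means were 17.2 ± 0.512 and 12.2 ± 0.5002 FPKM (SD, n = 3 each), and on the log2(FPKM + 1) scale they differed by -0.47 ± 0.04 (SE) (limma adjusted p = 0.00323, rank 33 by p-value among 11741 genes). Without replicate 3 at 100 nM it was -0.46 (limma adjusted p = 0.0131), and without replicate 3 of both groups it was -0.45 (limma adjusted p = 0.051), so that the call was lost.

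Hbegf, which encodes the heparin-binding ligand of EGFR and ERBB4 (ENSMUSG00000024486, chr18:36504927-36515805, minus strand), was at 22.3, 23.01 and 21.1 FPKM at 0 nM. At 100 nM it was at 17.3, 17.97 and 16.9 FPKM, with every library below the 0 nM group. Means were 22.1 ± 0.993 and 17.4 ± 0.552 FPKM (SD, n = 3 each), and on the log2(FPKM + 1) scale they differed by -0.33 ± 0.04 (SE) (limma adjusted p = 0.0115). Without replicate 3 at 100 nM it was -0.31 (limma adjusted p = 0.0326). The call was lost without replicate 1 at 0 nM, where the difference was -0.33 (limma adjusted p = 0.0579).

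Tgfa, which encodes transforming growth factor alpha (ENSMUSG00000029999, chr6:86195223-86275719, plus strand), was at 9.30, 9.68 and 9.84 FPKM at 0 nM and at 9.93, 9.61 and 9.55 FPKM at 100 nM. The values of both groups were interleaved. On the log2(FPKM + 1) scale the difference was 0.01 ± 0.03 (SE), with a 95% interval from -0.07 to 0.09 (limma adjusted p = 0.870), and its sign turned under some alternatives. The intervals of Areg (-0.56 to -0.37) and Hbegf (-0.43 to -0.24) both lie below that of Tgfa. Within each library, the ratio of Areg to Tgfa was 1.79, 1.80 and 1.78 at 0 nM and 1.28, 1.22 and 1.27 at 100 nM, and that of Hbegf to Tgfa went from 2.31 ± 0.144 to 1.79 ± 0.0688 (SD, n = 3 each).

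Btc, which encodes betacellulin (ENSMUSG00000082361, chr5:91357261-91402994, minus strand), was at 0.89, 1.03 and 0.83 FPKM at 0 nM and at 0.82, 0.88 and 0.99 FPKM at 100 nM. The groups overlapped, and an exact two-sided permutation test gave p = 0.7. With no filter on low values the difference was -0.01, with a 95% interval from -0.20 to 0.17 (limma adjusted p = 0.946). Ereg, which encodes epiregulin (ENSMUSG00000029377, chr5:91074622-91093646, plus strand), was listed at 0, 0.03 and 0.02 FPKM at 0 nM and at 0.04, 0.01 and 0.13 FPKM at 100 nM. Its highest value was in replicate 3 at 100 nM, and an exact two-sided permutation test gave p = 0.4. No fold is given at such levels. The 5 ligands summed to 49.1, 51.2 and 49.3 FPKM at 0 nM and to 40.8, 40.2 and 39.7 FPKM at 100 nM. In that sum the share of Areg went from 34.5% ± 0.969 to 30.3% ± 1.02 (SD, n = 3 each), that of Hbegf from 44.4% ± 1.46 to 43.2% ± 1.30, and that of Tgfa from 19.3% ± 0.600 to 24.1% ± 0.224.

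Errfi1 (ENSMUSG00000028967, chr4:150853919-150868892, plus strand) encodes MIG6, which binds the kinase domains of EGFR and ERBB2 and shuts them off, as a brake made after receptor activation. It was at 82.5, 84.0 and 84.6 FPKM at 0 nM and at 71.2, 68.8 and 65.7 FPKM at 100 nM. The groups were far apart relative to their spread, at 83.7 ± 1.07 and 68.5 ± 2.75 FPKM (SD, n = 3 each). On the log2(FPKM + 1) scale the difference was -0.29 ± 0.03 (SE), with a 95% interval from -0.36 to -0.21 (limma adjusted p = 0.00817). Without replicate 3 at 100 nM, its lowest library, the difference was -0.25 (limma adjusted p = 0.0128), and without replicate 3 of both groups it was -0.25 (limma adjusted p = 0.0503), so that the call was lost. The antisense gene 1700045H11Rik overlaps Errfi1 by 1031 bases, and whether strand was used in quantification is not given in the sources used here, so reads of that overlap cannot be assigned to a strand. Relative to Erbb2, the most abundant ErbB receptor transcript, Errfi1 stood at 5.92, 6.05 and 6.39 times at 0 nM and at 5.25, 5.07 and 4.87 times at 100 nM.

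**Figure D2:**
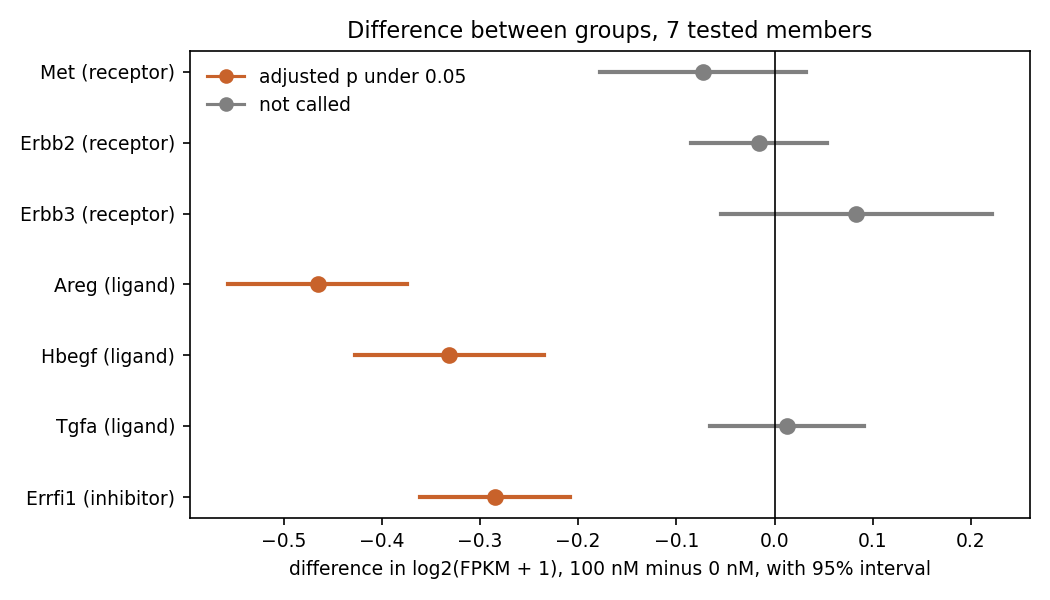
Difference in log2(FPKM + 1) between 100 nM and 0 nM PFOS (horizontal axis) for the 7 members tested, with 95% intervals from the limma fit. Areg, Hbegf and Errfi1 (orange, adjusted p under 0.05) lie below 0 with intervals that end at -0.37, -0.24 and -0.21, and the intervals of Met, Erbb2, Erbb3 and Tgfa (grey) hold 0.

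The promoters of Areg and Errfi1 are printed because both transcripts fell, and that of Tgfa because it is the ligand of similar level that was not called. Each line gives the 250 bases before a RefSeq transcription start (GRCm38.p6, plus strand, 5′ to 3′), and 7 of the 10 genes have an entry in the RefSeq table, without Hbegf, Erbb3 and Ereg. The capitals mark matches to the motifs searched on both strands: the AP-1 site TGANTCA, the cyclic AMP response element (CRE) TGACGTCA, the EGR1 site GCGNGGGCG, the SRF-bound CArG box and the TATA box TATAAA. None of these motifs overlapped another in the 3 windows.
Areg, chr5:91139349-91139598: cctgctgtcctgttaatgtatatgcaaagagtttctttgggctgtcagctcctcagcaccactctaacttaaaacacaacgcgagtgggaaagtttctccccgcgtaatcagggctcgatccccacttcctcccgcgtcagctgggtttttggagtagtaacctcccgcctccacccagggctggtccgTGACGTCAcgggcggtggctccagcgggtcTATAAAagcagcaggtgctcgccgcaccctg
Errfi1, second start, chr4:150854820-150855069: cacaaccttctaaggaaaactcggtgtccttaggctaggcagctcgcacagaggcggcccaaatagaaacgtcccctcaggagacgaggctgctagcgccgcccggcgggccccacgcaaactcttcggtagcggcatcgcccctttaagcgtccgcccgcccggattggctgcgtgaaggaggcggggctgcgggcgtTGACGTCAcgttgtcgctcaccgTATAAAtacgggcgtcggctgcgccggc
Tgfa, chr6:86194972-86195221: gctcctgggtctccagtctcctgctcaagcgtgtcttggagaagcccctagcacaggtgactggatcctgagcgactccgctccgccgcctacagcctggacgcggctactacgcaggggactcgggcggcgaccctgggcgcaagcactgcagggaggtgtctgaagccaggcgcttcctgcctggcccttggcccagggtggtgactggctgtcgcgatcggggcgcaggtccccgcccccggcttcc

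Areg and Errfi1, 2 of the 3 members that fell, shared a CRE followed by a TATA box. In Areg the CRE lies 61 to 54 bases before the start and the TATA box 31 to 26 bases before it, and at the second start of Errfi1 they lie 51 to 44 and 28 to 23 bases before it. That second start lies inside the gene span given above. The bases right after the Areg window were found in a GENCODE M21 transcript of Areg. Those after either Errfi1 window and after the Tgfa window were not found in full in a transcript of their gene. Which Errfi1 start was used in these cells was not tested. The Tgfa window held none of the motifs, nor did the windows of Erbb2, Egfr, Btc and the first Errfi1 start. The Met window held an AP-1 match 54 to 48 bases before its start. Of all 32851 promoter windows of that length in the table, 1.55% held the CRE, 12.4% the TATA box, 0.119% both, 6.75% the AP-1 site, 4.70% the EGR1 site and 1.47% a CArG box. The pairing of CRE and TATA box was noticed after the sequences were seen. Of 20 tested genes whose windows held both, Areg and Errfi1 were the 2 that fell, 0 rose, and the median difference was 0.04 on the log2(FPKM + 1) scale. Of 268 tested genes with the CRE, 9 fell (3.36%) and 3 rose, beside 2.41% lower among tested genes with any promoter entry. Such matches describe the letters of these windows and say nothing of factor binding, which was not measured here.

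Areg, Ereg and Btc are neighbours on chromosome 5, and Cxcl5 and Cxcl1 lie on the side of Ereg. Ereg lies 46.0 kb before Areg, and Btc lies 208.8 kb beyond it. The ligand gene Epgn, 104.4 kb from Areg, was at no more than 0.15 FPKM. Cxcl1, 246.5 kb away, and Cxcl5, 378.0 kb away, encode neutrophil-attracting chemokines and were the only other genes called among the 29 tested protein-coding genes with centres within 2.5 Mb of Areg. Both fell, with differences of -0.71 (limma adjusted p = 0.00223) and -0.38 (limma adjusted p = 0.0125) on the log2(FPKM + 1) scale. Mthfd2l, which lies between Cxcl1 and Areg and encodes a mitochondrial folate enzyme, was at 2.47 and 2.49 FPKM and was not called (limma adjusted p = 0.939). Over the 29 neighbours 14 differences were below 0 and 15 above, with a median of 0.0003.

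Around Hbegf most genes were lower. Of 52 tested protein-coding genes with centres within 2.5 Mb of it on chromosome 18, 46 had a difference below 0 and 6 above, with a median of -0.10. Over all 11741 genes tested, 5566 were below 0 and 2.46% were called lower. Of the 52 neighbours, 9 were called lower and 0 higher. Among the 9 was Pfdn1, the nearest tested gene on one side, with a difference of -0.19 (limma adjusted p = 0.0183). Ankhd1, nearest on the other side, was at 5.80 and 5.57 FPKM and was not called (limma adjusted p = 0.647). The 9 included Egr1 and Spry4, which are ERK-induced genes described with the pathway lists. The difference of Hbegf, -0.33, was below that median, and its share in the shift of the region was not tested. Around Errfi1, 13 of 38 neighbours were below 0 and 25 above, with a median of 0.01, and 1 other gene, Slc25a33, was called lower. Its nearest tested neighbours Rps15a-ps3 and Park7 were not called (limma adjusted p = 0.829 and 0.0577). Around Met, Erbb2, Erbb3, Egfr and Tgfa the medians lay between -0.02 and 0.02.

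**Figure D3:**
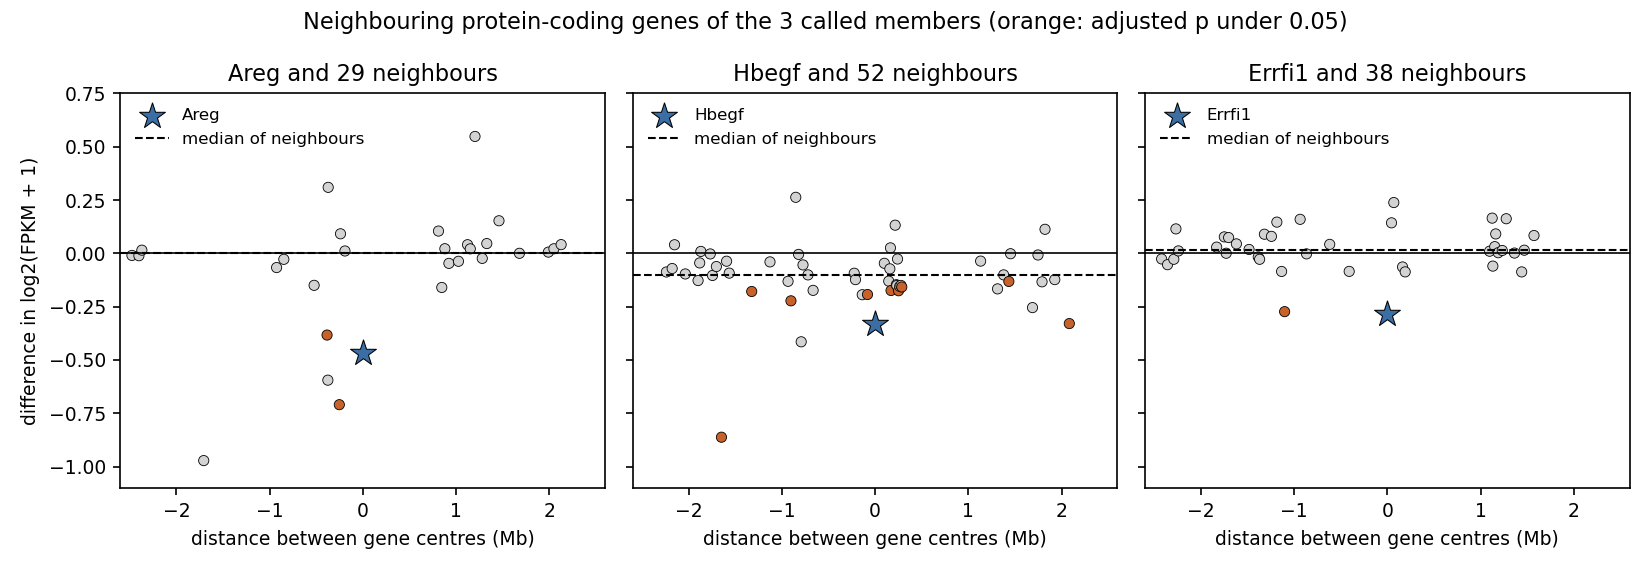
Differences in log2(FPKM + 1) between 100 nM and 0 nM PFOS (vertical axis) of tested protein-coding genes with centres within 2.5 Mb of Areg, Hbegf and Errfi1 (stars), against the distance between gene centres. Orange points had an adjusted p under 0.05, and dashed lines are the medians of the neighbours. The median lies at -0.10 around Hbegf and near 0 around Areg and Errfi1.

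The rest of the pathway was read from lists of 85 genes, of which 84 were found and 73 tested. In all, 9 were called (4.15% over all genes tested), of which 2 rose and 7 fell, with a median difference of -0.02 on the log2(FPKM + 1) scale. The count of 9 became 1 to 4 when any 1 of the 6 libraries was left out. Among receptors and ligands outside the 10 genes, Nrg1, a ligand of ERBB3 and ERBB4, was the 1 gene tested, at 1.76 and 1.65 FPKM (limma adjusted p = 0.746). The other 8 found had means under 1 FPKM, with Erbb4 at no more than 0.07 FPKM. Of 7 tested sheddases, activating proteases and their inhibitors, 0 rose and 0 fell by limma (1 had an unadjusted p under 0.05). These included Adam17, the main sheddase of Areg, Hbegf and Tgfa precursors, at 20.9, 20.7 and 19.7 FPKM at 0 nM and at 19.7, 19.3 and 19.5 FPKM at 100 nM (limma adjusted p = 0.288). Spint2, an inhibitor of the proteases that activate the MET ligand, was the most abundant of them at 38.1 and 37.6 FPKM. Adaptors had 0 of 13 called by limma (4 at an unadjusted p under 0.05), with Crk highest at 49.0 and 46.8 FPKM. That unadjusted level was reached by 5 of 12 genes of the Ras-ERK cascade, 2 of 8 of the PI3K-AKT branch and 10 of 17 ERK-induced transcripts. It was common over all genes: Pik3cb of the PI3K-AKT branch, at an unadjusted limma p of 0.0509, had rank 2459 by p-value among 11741 genes.

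In the Ras-ERK cascade 1 of 12 rose and 0 fell. Map2k1, which encodes the ERK kinase MEK1, went from 43.4 ± 1.2 to 50.0 ± 1.81 FPKM (SD, n = 3 each), a difference of 0.20 on the log2(FPKM + 1) scale (limma adjusted p = 0.0339). That call was lost when any 1 library but replicate 2 at 100 nM was left out (limma adjusted p = 0.0712 to 0.113). Mapk3, which encodes ERK1, was at 50.4 and 47.4 FPKM and was not called (limma adjusted p = 0.158). In the PI3K-AKT branch 1 of 8 rose, Akt1, which was at 109.0 ± 1.498 FPKM without PFOS and at 116 ± 0.901 FPKM with it (SD over 3 libraries), at a limma adjusted p of 0.0485, and 0 fell. The Akt1 call was lost in 14 of 16 alternatives, among them each that left out 1 library (limma adjusted p = 0.08004 to 0.151). Of 15 tested genes of receptor downregulation, 0 were called by limma in either direction (2 at an unadjusted p under 0.05). Lrig1, a transmembrane protein that promotes ErbB degradation, was the most abundant of these, at 35.0 and 32.0 FPKM, with no overlap between the groups and a limma adjusted p of 0.0526.

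Of the transcripts induced by ERK signalling, 7 of 17 tested fell, 0 rose, 15 had a difference below 0, and the median was -0.15 on the log2(FPKM + 1) scale, beside 2.46% called lower and a median of 0.01 over all genes tested. The transcription factor gene Egr1 went from 13.7 to 7.11 FPKM, and the ETS factor gene Etv5 from 16.3 to 13.1 FPKM (limma adjusted p = 0.000991 and 0.0132). The ERK pathway inhibitor Spry4 went from 3.89 to 2.89 FPKM, and the phosphatase genes Dusp6 and Dusp5 from 35.0 to 29.6 and from 30.5 to 26.3 FPKM (limma adjusted p = 0.0171, 0.014 and 0.0484). Phlda1 went from 41.5 to 37.2 FPKM and Ier3, the most abundant, from 320.5 to 293 FPKM (limma adjusted p = 0.0315 and 0.0478). Egr1 and Spry4 are among the chromosome 18 neighbours of Hbegf, of which 46 of 52 had a difference below 0. The part of that region in their fall was not tested. Others of the list were not called. Of these Fosl1 (70.6 and 54.5 FPKM), Jun (53.8 and 47.01 FPKM), Spry2 (13.8 and 12.3 FPKM) and Etv4 (37.3 and 35.5 FPKM) had every library at 100 nM below the 0 nM group (limma adjusted p = 0.105, 0.0521, 0.146 and 0.274). With the called genes, 11 of 17 did so, beside 13.3% of all genes tested. Fos went the other way, at 1.28 and 1.57 FPKM, with its highest value in replicate 3 at 100 nM (limma adjusted p = 0.723). Myc was at 122 and 123 FPKM, Junb at 113 and 112 FPKM and Spred2 at 18.7 and 18.7 FPKM. Etv5 shares 30.3% of its 31-base words with transcripts of other genes, so its value is less certain, whereas Areg, Hbegf, Tgfa, Errfi1, Met, Erbb2 and Erbb3 share 0%. The list had been seen in part in earlier results of these data, and its count was 1 to 4 when any 1 of the 6 libraries was left out, 1 of these being without replicate 1 at 100 nM.

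**Figure D4:**
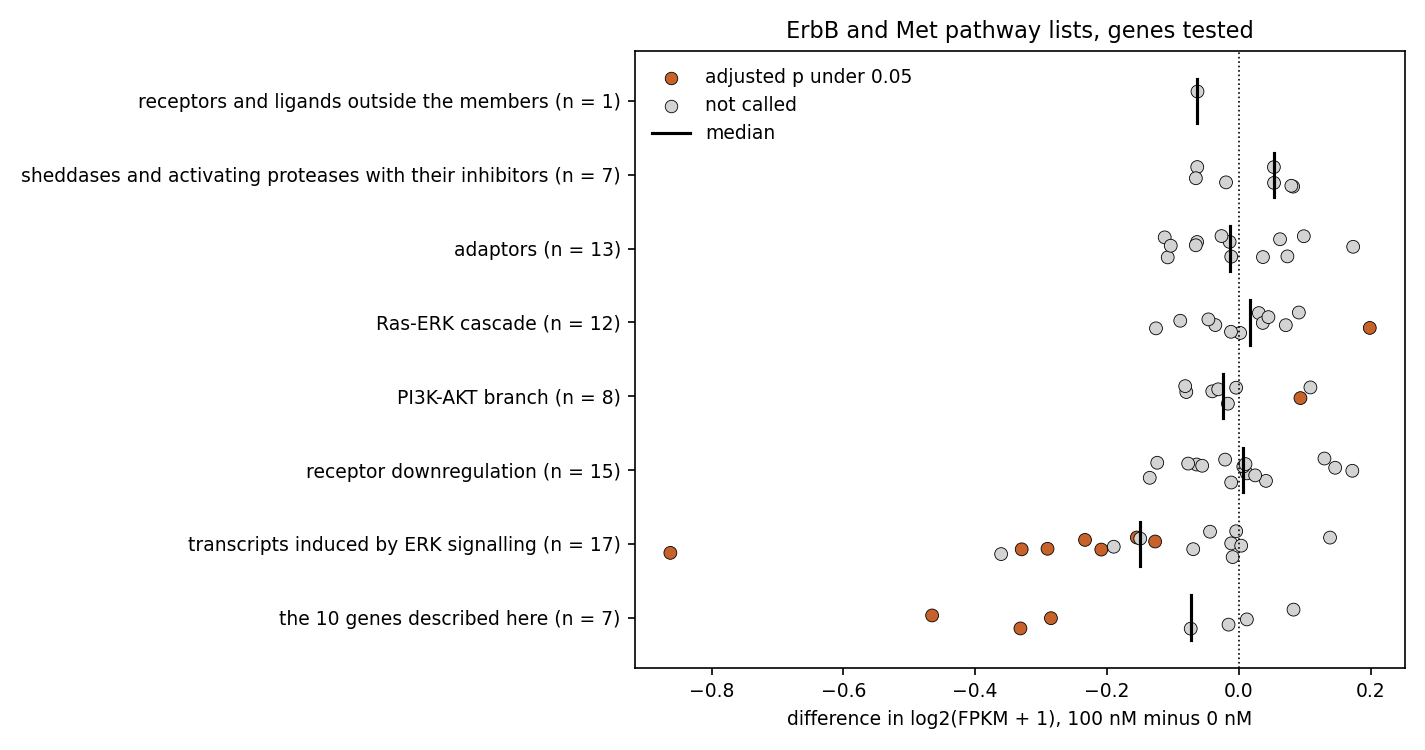
Differences in log2(FPKM + 1) between 100 nM and 0 nM PFOS (horizontal axis) of the tested genes of 7 pathway lists and of the 10 genes described here, 1 point a gene. Orange points had an adjusted p under 0.05 and black bars are medians. The list of ERK-induced transcripts has 7 orange points, all below 0, and the lists of sheddases, adaptors and receptor downregulation have none.

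The genes whose levels followed the fallen members most closely were searched among 6805 protein-coding genes that averaged 5 FPKM or more, by Pearson correlation of log2(FPKM + 1) over the 6 libraries. For Areg they were Hnrnpr, Txn1 and Snx4 (r = 0.998, 0.997 and 0.996), for Hbegf Atp13a3, Gpt2 and Hmga1b (r = 0.997, 0.995 and 0.994), and for Errfi1 Gipc2, Steap2 and Ppp1r2 (r = 0.998, 0.997 and 0.997). Hmga1b is a near-identical copy of Hmga1, so reads may be split between them and its value is uncertain. Many genes came close to these values. A correlation above 0.95 was reached by 204 genes for Areg, 181 for Hbegf and 201 for Errfi1, and the 6 points share the difference between the groups. Hnrnpr was at 5.86 and 5.48 FPKM and Txn1 at 307 and 293 FPKM, and neither was called (limma adjusted p = 0.186 and 0.0678). Snx4, which encodes a sorting nexin of endosomal recycling, went from 23.99 to 17.8 FPKM, and Atp13a3, a polyamine transporter gene, from 23.5 to 18.9 FPKM (limma adjusted p = 0.00124 and 0.00776).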

How the data were processed

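The tools fastp, HISAT2 and StringTie, without versions, and 2 builds, mm10 and GRCh38, are listed per the submitters' processing notes. The annotation release and the strand setting were not given in the sources used here. Per the labels' protocols, libraries were made from poly(A) RNA with dUTP strand marking and read in pairs. The authors deposited 1 FPKM value per gene and library, written to 2 decimals. Of 28418 identifiers, 28350 are in GENCODE M21 (GRCm38) and 25640 have the same coordinates there, so coordinates belong to GRCm38.

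Two-sided limma-trend tests of 100 nM against 0 nM PFOS were run on log2(FPKM + 1) with limma 3.58.1 (R 4.3.3) for the 11741 genes that averaged 1 FPKM or more. Such differences understate the change of low genes. The files hold no counts. Low values of short single-transcript genes were searched for the size of 1 fragment, but at most 29.6% lay within 0.1 of a whole multiple, so depth is unknown and the replicates alone give the precision. The fit was also run on simulated data with independent noise in each library, which cannot show whether the spread between replicates is technical.

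The 10 genes, the pathway and marker lists and the tests were chosen with earlier results of these data known. Named are all members, pathway genes that were called or most abundant in their list and, for called members, the 3 most correlated genes. The nearest tested genes are named on both sides of Hbegf and Errfi1 and on 1 side of Areg, and most of those of the other members are not. Others were chosen after their values were seen. Pgr and Nrg3 were not analysed here. Shared sequence was measured as 31-base words. Alternatives covered the pseudocount (0.1), filters (none, 5 FPKM), scalings, the intensity trend, a replicate block and the removal of libraries. Python 3.11.15 and pandas 2.3.3 were used for the rest.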

Additional observations from a re-analysis of the deposited data

How the results depend on the processing

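Areg, Hbegf and Errfi1 had negative differences under each of 16 alternatives (from -0.49 to -0.44, from -0.37 to -0.30 and from -0.31 to -0.25). Their calls held in 14, 15 and 14 of these, with limma adjusted p from 0.0019 to 0.051, from 0.00649 to 0.0579 and from 0.00485 to 0.069. Met, Erbb2 and Erbb3 kept their sign and were called in none. Tgfa turned to -0.0044 under upper quartile scaling, ranged from -0.0087 to 0.0282 when 1 library was left out (below 0 without replicate 1 of either group) and was called in none.

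The count of members called was 1 without replicate 3 of both groups and 2 to 3 when 1 library was left out. For all genes the count of 487 became 204 with no filter, 313 under upper quartile scaling, 294 without the intensity trend, 91 without replicate 3 of both groups and 122 to 290 when 1 library was left out. Calls were 59.3% lower ones, and 73.8% under upper quartile scaling. For the pathway lists the count of 9 became 3 with no filter, 4 without the intensity trend, 1 without replicate 3 of both groups and 1 to 4 when 1 library was left out. For ERK-induced transcripts the count of 7 became 3, 4, 1 and 1 to 4 under the same settings. Fewer libraries leave less to estimate the spread, and the cause of the other changes was not tested. The labels do not say that equal replicate numbers mark shared cultures, and deviations of same-numbered libraries correlated at -0.03, -0.05 and 0.007. With the replicate number as a block, 58 genes, 1 of the 10 members (Hbegf, limma adjusted p = 0.0462), 1 gene of the pathway lists and 1 ERK-induced transcript were called. Depth is unknown, so values near 0, such as those of Ereg, carry no interval, and the difference of Ereg went from 0.06 to 0.39 with a pseudocount of 0.1.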
